A study of Mus musculus with 6 samples.

Results

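The 10 imprinted genes followed here lie outside the H19 and Igf2 locus and were measured in cultured leukaemia cells of the mouse: Mest, Peg3, Plagl1, Dlk1, Meg3, Impact, Snrpn, Peg10, Ndn and Zrsr1. They were taken by symbol from the deposited expression table as genes known to be imprinted, and all 10 are present among its 22098 symbols. The cells were BCR-ABL+ transformed pro-B acute lymphoblastic leukaemia cells. They came from C57BL/6 bone marrow that received BCR-ABL-p185-IRES-YFP by retrovirus at day 0 in all groups, so each group, wild type included, carries the fusion kinase BCR-ABL and a fluorescent reporter. The marrow was wt, Ikaros_ZnF1-/- or Ikaros_ZnF4-/-, called wild type, ZnF1 mutant and ZnF4 mutant here. Ikaros (Ikzf1) directs lymphocyte development by binding DNA through zinc fingers, and each mutant lacks 1 of the fingers that contact DNA. Poly(A) RNA was sequenced from 1 library per genotype at day 21 and 1 at day 28 of culture, 6 libraries in all, and the comparison asks what the single fingers contribute to gene expression. The labels do not say whether the 2 days of a genotype came from separate cultures. For a genotype comparison, a p-value here measures a difference only against how unlike the changes from day 21 to day 28 were between the genotypes. A day change shared by all genotypes does not enter it, nor does a spread between cultures. A feature of a single culture therefore cannot be told apart from its genotype.

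An imprinted gene is transcribed mainly from the copy inherited from 1 parent, because DNA methylation laid down in the germ line at a nearby control region marks 1 of the 2 copies. The marked copy is the silent one for many of these genes, but not for all. Most such genes act in growth, placenta and brain, are abundant in the embryo and are switched down after birth. Of the genes followed here Meg3 is expressed from the maternal copy and the others from the paternal copy. Loss of an imprint can bring a second active copy, but total RNA as measured here does not separate the parental copies.

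Values are RPKM (reads scaled for transcript length and for the library's mapped reads) as deposited, rounded to 1 decimal. The read depth is unknown. The number of symbols at 1 RPKM or more ranged from 10401 to 11233 per library. Both ZnF1 libraries had the most such symbols, 11110 at day 21 then 11233 at day 28. Wild type had 10455 at day 21 then 10401 at day 28, while ZnF4 libraries had 10500 then 10539. Ikzf1 itself had 78.7 to 89.2 RPKM in wild type, 91.4 to 108 RPKM in the ZnF1 mutant and 165.9 to 186 RPKM in the ZnF4 mutant, and a whole-transcript value cannot show the loss of a single finger. The 8 B-lineage markers, among them Cd79a, Pax5 and Ebf1, were present in all 6 libraries as the labelled cell type requires, with a summed level of 2456.9 to 2907.3 RPKM.

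Most of the 10 imprinted genes were close to silent. Of the 10, 6 stayed below 1 RPKM in every library, and 5 of these 6 (Peg3, Plagl1, Dlk1, Meg3 and Snrpn) never exceeded 0.2 RPKM. By comparison, 47.3% of all symbols stayed below 1 RPKM in every library. Impact was the highest member, at 8.2 to 12.1 RPKM, and 71.6% of symbols had a lower highest value. Zrsr1 followed at 1.8 to 3.9 RPKM, then Ndn at 0.2 to 1.8 RPKM and Mest at 0.8 to 1.2 RPKM. Zrsr1 lay below Impact and above Mest without overlap, and its lowest value equalled the highest of Ndn. Ndn and Mest overlapped each other, and Peg10, next at 0 to 0.5 RPKM, overlapped Ndn. RPKM is scaled for transcript length, so these levels can be set side by side.

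**Figure D1:**
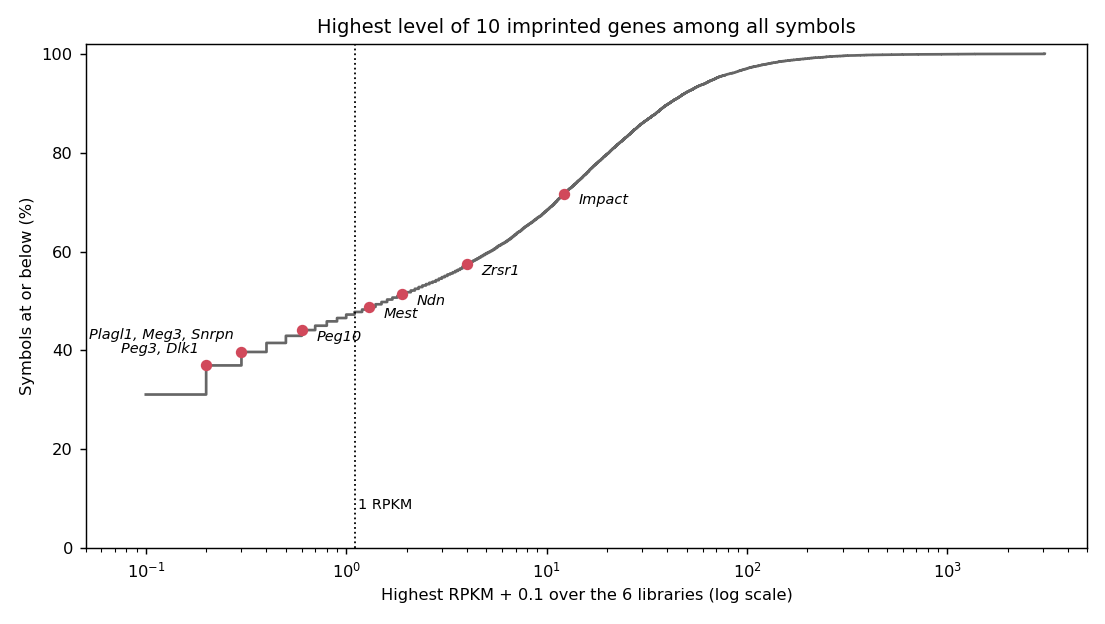
Cumulative share of all 22098 symbols (vertical axis, percent) by the highest RPKM a symbol reached in the 6 libraries (horizontal axis, RPKM + 0.1, log scale), with the 10 imprinted genes as points and a dotted line at 1 RPKM. Peg3 and Dlk1 at 0.1 RPKM and Plagl1, Meg3 and Snrpn at 0.2 RPKM sit on the lowest steps, and Impact at 12.1 RPKM is the highest.

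Plagl1 and Peg3 were near 0. Plagl1 (Zac1), a zinc finger factor that regulates other imprinted genes, was listed at 0 at day 21 and 0.1 RPKM at day 28 for wild type, at 0.1 and 0.2 RPKM for the ZnF1 mutant and at 0 in both ZnF4 libraries. Peg3, a zinc finger protein of growth and maternal behaviour, was at 0.1 RPKM in both ZnF1 libraries and listed at 0 in the other 4. These values lie 1 or 2 rounding steps above 0, so no fold change is given. Usp29, which shares the control region of Peg3, and its neighbours Zim1 and Zim3 were listed at 0 in all 6 libraries.

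Dlk1 and Meg3, which lie in 1 domain, were near 0 as well. Dlk1, a transmembrane protein with EGF-like repeats that limits adipocyte differentiation, was listed at 0 in 5 of 6 libraries and at 0.1 RPKM in the ZnF1 mutant at day 21. This is the highest of its 5 transcript rows. Meg3, the non-coding RNA of the maternal copy, was at 0.1 and 0.2 RPKM in the ZnF1 mutant and at 0 in the other 4 libraries, in the highest of its 3 rows. The non-coding RNAs Rian and Mirg and the retrotransposon-derived Rtl1 of the same domain were at 0 throughout. Dio3, at its far end, had at most 0.2 RPKM. The other two listed neighbours were measurable: Wdr25 had 1.7 to 2.4 RPKM and was not called, and Begain had 0.9 RPKM in both wild type libraries, 1.4 and 1.7 RPKM in the ZnF1 mutant and 1.1 RPKM in both ZnF4 libraries. Begain was called higher in the ZnF1 mutant (0.42 ± 0.10, limma adjusted p = 0.0295), but with quantile scaling the difference was -0.0062 and the call ended. That call also ended without the filter, without any single wild type or ZnF1 library, and without ZnF4 day 21.

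Snrpn, which encodes the SmN protein of spliceosomal particles, was at 0.2 and 0.1 RPKM in the ZnF1 mutant and at 0 in the other 4 libraries, in the highest of its 3 rows. Its closely related counterpart Snrpb, the form used in most tissues, had 78.6 to 118.9 RPKM. The Snrpn transcripts of GENCODE M21 shared 0 of 2120 stretches of 36 bases with those of Snrpb, a length chosen without knowledge of the read length. Of the Snrpn exon bases 27.3% are shared on the same strand with Gm38393 and 10% with Snurf, and Snurf is not a symbol of the table. Magel2, a neighbour of Ndn in the Prader-Willi domain, was at 0 in all libraries, and Mkrn3 and Peg12 of that domain stayed at or below 0.4 RPKM.

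**Figure D2:**
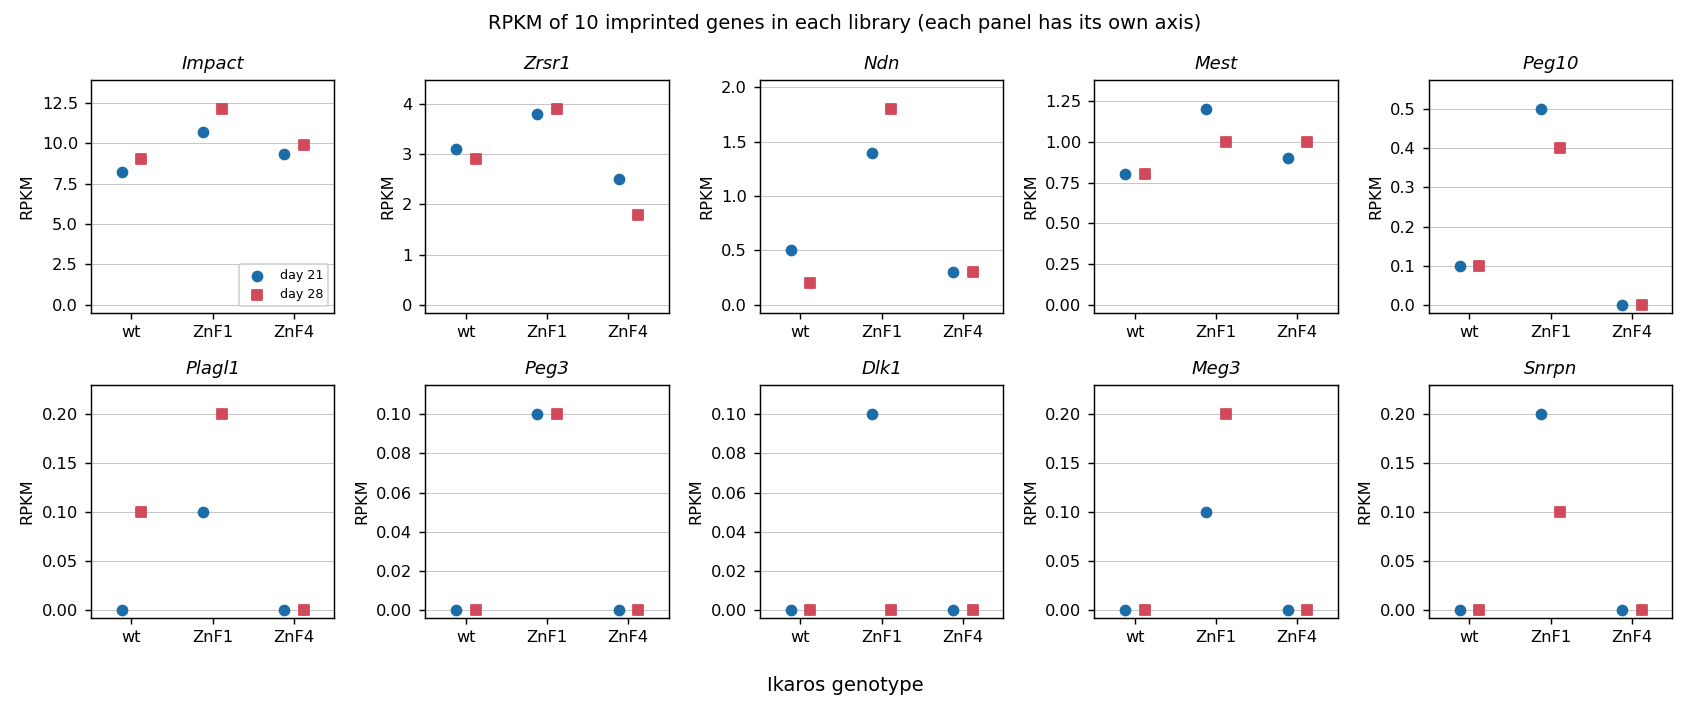
RPKM of each of the 10 imprinted genes (vertical axis, a separate scale per panel) by Ikaros genotype (horizontal axis), with 1 point per library, a circle for day 21 and a square for day 28. In 8 panels both ZnF1 libraries lie above both wild type libraries, and in the lower row no value exceeds 0.2 RPKM.

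The 4 members with at least 1 RPKM in at least 2 libraries were tested: Impact, Zrsr1, Ndn and Mest. The test was limma on log2(RPKM + 1), fitted to all genes and all 6 libraries with genotype and day as terms. A call means a Benjamini-Hochberg adjusted p under 0.05 over the 11379 genes tested. Each difference is one of log2(RPKM + 1) and carries its standard error, with n = 2 libraries per genotype. For low genes the added 1 makes the difference smaller than the change in RPKM.

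In the ZnF1 mutant against wild type, Ndn and Impact were higher, and Zrsr1 and Mest were not called. This is 2 of 4 tested members called higher, where 22.9% of all tested genes were called higher and 38.1% were called in either direction. With quantile scaling the split of calls over all genes turned from 2606 higher and 1730 lower to 2114 higher and 2883 lower. The median difference of all tested genes then moved to -0.12, and Ndn and Impact were still called higher. For Impact that call was close to the threshold, with a difference of 0.25 (limma adjusted p = 0.0476). Ndn (necdin) is a MAGE-family protein of the Prader-Willi region that restrains proliferation. For Ndn the wild type values were 0.5 RPKM at day 21 and 0.2 RPKM at day 28, the ZnF1 mutant 1.4 and 1.8 RPKM, and the ZnF4 mutant 0.3 RPKM on both days. Both ZnF1 libraries stood above the other 4, and wild type and the ZnF4 mutant overlapped. The difference of the ZnF1 mutant from wild type was 0.95 ± 0.15 (limma adjusted p = 0.00828), 1.99 with a pseudocount of 0.1 and 0.59 with quantile scaling. Ndn passed the expression filter only through the ZnF1 libraries, so a difference between the groups was built into its being tested, and it could not be tested when either of these libraries was left out. Leaving out wild type day 28 ended the call (limma adjusted p = 0.0562), as did dropping the filter (limma adjusted p = 0.079).

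Impact binds Gcn1 and so holds back the amino-acid sensing kinase Gcn2. It had 8.2 and 9 RPKM in wild type, 10.7 and 12.1 RPKM in the ZnF1 mutant and 9.3 and 9.9 RPKM in the ZnF4 mutant. The 3 genotypes did not overlap, with wild type lowest and the ZnF1 mutant highest. The difference of 0.37 ± 0.08 in the ZnF1 mutant was called (limma adjusted p = 0.0186). Leaving out any single library of these 2 genotypes ended the call (limma adjusted p from 0.11 to 0.148), and the difference then lay between 0.34 and 0.40. Osbpl1a, a neighbour of Impact, was not called in any genotype comparison (17 to 20.5 RPKM).

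Zrsr1, an intronless gene for an RNA-binding protein related to the splicing factor subunit U2af1, lies within Commd1. It had 3.1 and 2.9 RPKM in wild type, 3.8 and 3.9 RPKM in the ZnF1 mutant, and 2.5 and 1.8 RPKM in the ZnF4 mutant. The 3 genotypes did not overlap, with the ZnF4 mutant lowest. Neither mutant was called against wild type: the difference was 0.28 ± 0.12 for the ZnF1 mutant (limma adjusted p = 0.124) and -0.35 ± 0.12 for the ZnF4 mutant (limma adjusted p = 0.11). With quantile scaling the first of these changed sign, to -0.06. Of its exon bases in GENCODE M21, 9.17% also belong to exons of Commd1 on the opposite strand, and no strand-marking step is named, so reads there cannot be assigned. Commd1 (31 to 43.3 RPKM) was not called in any genotype comparison. Its related gene Zrsr2 (8.3 to 10.6 RPKM) was not called either, and shared 2 of 4455 stretches of 36 bases with Zrsr1.

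Mest, a hydrolase-fold protein of mesoderm and adipose growth, had 0.8 RPKM in both wild type libraries, 1.2 and 1 RPKM in the ZnF1 mutant and 0.9 and 1 RPKM in the ZnF4 mutant. Both mutants lay above wild type by 1 to 4 rounding steps, and neither was called (0.22 ± 0.11, limma adjusted p = 0.158, and 0.12 ± 0.11, limma adjusted p = 0.524). With quantile scaling the difference of the ZnF1 mutant changed sign, to -0.18. Copg2, a coat protein gene on the opposite strand, shares 23.1% of the Mest exon bases in GENCODE M21. It had 18.9 to 23 RPKM, many times the level of Mest, so the share of the Mest value that comes from Copg2 reads cannot be told apart.

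Peg10, a protein derived from a retrotransposon Gag-Pol gene and needed in the placenta, had 0.1 RPKM in both wild type libraries, 0.5 and 0.4 RPKM in the ZnF1 mutant and 0 in both ZnF4 libraries. The 3 genotypes did not overlap, but no library reached 1 RPKM and Peg10 was not tested. Of its neighbours, all 4 that passed the filter were called higher in the ZnF1 mutant, where 22.9% of all tested genes were called higher. Sgce (epsilon-sarcoglycan), transcribed away from Peg10 out of the same control region and likewise from the paternal copy, had 0.2 RPKM in both wild type libraries, 1.6 and 1.8 RPKM in the ZnF1 mutant and 0.1 RPKM in both ZnF4 libraries. Its difference in the ZnF1 mutant from wild type was 1.17 ± 0.10 (limma adjusted p = 0.00146). The ZnF4 mutant differed from the ZnF1 mutant by -1.29 ± 0.10 (limma adjusted p = 0.000752). Like Ndn, Sgce passed the filter only through the ZnF1 libraries. Casd1, a sialic acid acetyltransferase on the far side of Sgce, had 7.9 and 6.2 RPKM in wild type, 17.1 and 16.6 RPKM in the ZnF1 mutant, and 12.3 and 10.4 RPKM in the ZnF4 mutant. It was higher in the ZnF1 mutant by 1.16 ± 0.09 (limma adjusted p = 0.00133) and in the ZnF4 mutant by 0.62 ± 0.09 (limma adjusted p = 0.0123). The latter call ended when the filter was dropped or when a single wild type or ZnF4 library was left out (limma adjusted p up to 0.136). The paraoxonase genes Pon2 and Pon3 were the other two called higher in the ZnF1 mutant, by 0.50 ± 0.09 and 0.85 ± 0.08. That of Pon2 ended without the filter, without wild type day 21 and without either ZnF1 library (limma adjusted p up to 0.106). Calcr, Tfpi2, Ppp1r9a, Asb4 and Pon1 of the same domain stayed below 1 RPKM.

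Counted without a test, both ZnF1 libraries were above both wild type libraries for 8 of the 10 imprinted genes, all but Plagl1 and Dlk1. The same held for 24.9% of all 22098 symbols. In 4 of the 8 (Peg3, Meg3, Snrpn and Peg10) no value exceeded 0.5 RPKM, where the groups are 1 to 4 rounding steps apart. None of the 10 had both ZnF1 libraries below both wild type libraries, against 18% of symbols. These shares of all symbols, and those given below for the ZnF4 mutant, include 6867 symbols listed at 0 in all 6 libraries. Such symbols cannot be apart, and no member is among them, so the shares are higher among symbols with any value above 0.

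Markers of other cell types moved with the ZnF1 mutant too, and among all tested genes 22.9% were called higher in it. Of the 13 tested stromal markers 12 were called higher in it, with Thy1 the exception, and the summed level of the 15 listed was 32 to 51.7 RPKM in wild type, 202.3 to 224.2 RPKM in the ZnF1 mutant and 26.8 to 33.5 RPKM in the ZnF4 mutant. Of these 12, Pdgfra, Pdgfrb and Fbn1 passed the filter only through the ZnF1 libraries. Lum, a defining fibroblast gene, was at 0 in all 6 libraries, while Col1a1 had 8.3 and 8.2 RPKM in the ZnF1 mutant and 1.8 and 1.9 RPKM in wild type. All 12 macrophage markers were called higher, with sums of 390.4 to 595.9 RPKM in wild type, 2210.5 to 2292.6 RPKM in the ZnF1 mutant and 274.2 to 331.2 RPKM in the ZnF4 mutant, and none at 0. Of the 6 endothelial markers 2 were tested: Kdr, which passed the filter only through the ZnF1 libraries, was called higher, and Pecam1 was not called (sums of 25.7 to 26.6 RPKM in wild type and 29.3 to 30.6 RPKM in the ZnF1 mutant). Tested members of the remaining lists were called higher as well: Cpa3 and S100a8 (2 of 2 tested granulocyte and mast cell markers), Pf4 of megakaryocytes, Cd4 (1 of 2 tested T-cell markers), and Kit and Procr (2 of 3 tested progenitor markers). Cpa3, S100a8, Cd4 and Procr passed the filter only through the ZnF1 libraries. Summed over each list, granulocyte and mast cell markers had 0.2 to 0.4 RPKM in wild type, 5.3 to 5.8 RPKM in the ZnF1 mutant and 0.7 to 1.3 RPKM in the ZnF4 mutant. Elane, Mpo, Cd3e and Cd8a, which define some of these cell types, were at 0 in all 6 libraries. None of the 8 B-lineage markers was called in this comparison by limma, where 38.1% of all tested genes were called in either direction. At an unadjusted limma p below 0.05 there were 3 of the 8, against 49.3% of all tested genes. The B-lineage sums were 2456.9 to 2663.8 RPKM in wild type, 2645.6 to 2655.8 RPKM in the ZnF1 mutant and 2617.1 to 2907.3 RPKM in the ZnF4 mutant. The part of these cell types in the values of Ndn, Peg10, Sgce and the other imprinted genes was not tested, and in bulk RNA a change in the number of cells of a type and in RNA per cell cannot be told apart.

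**Figure D3:**
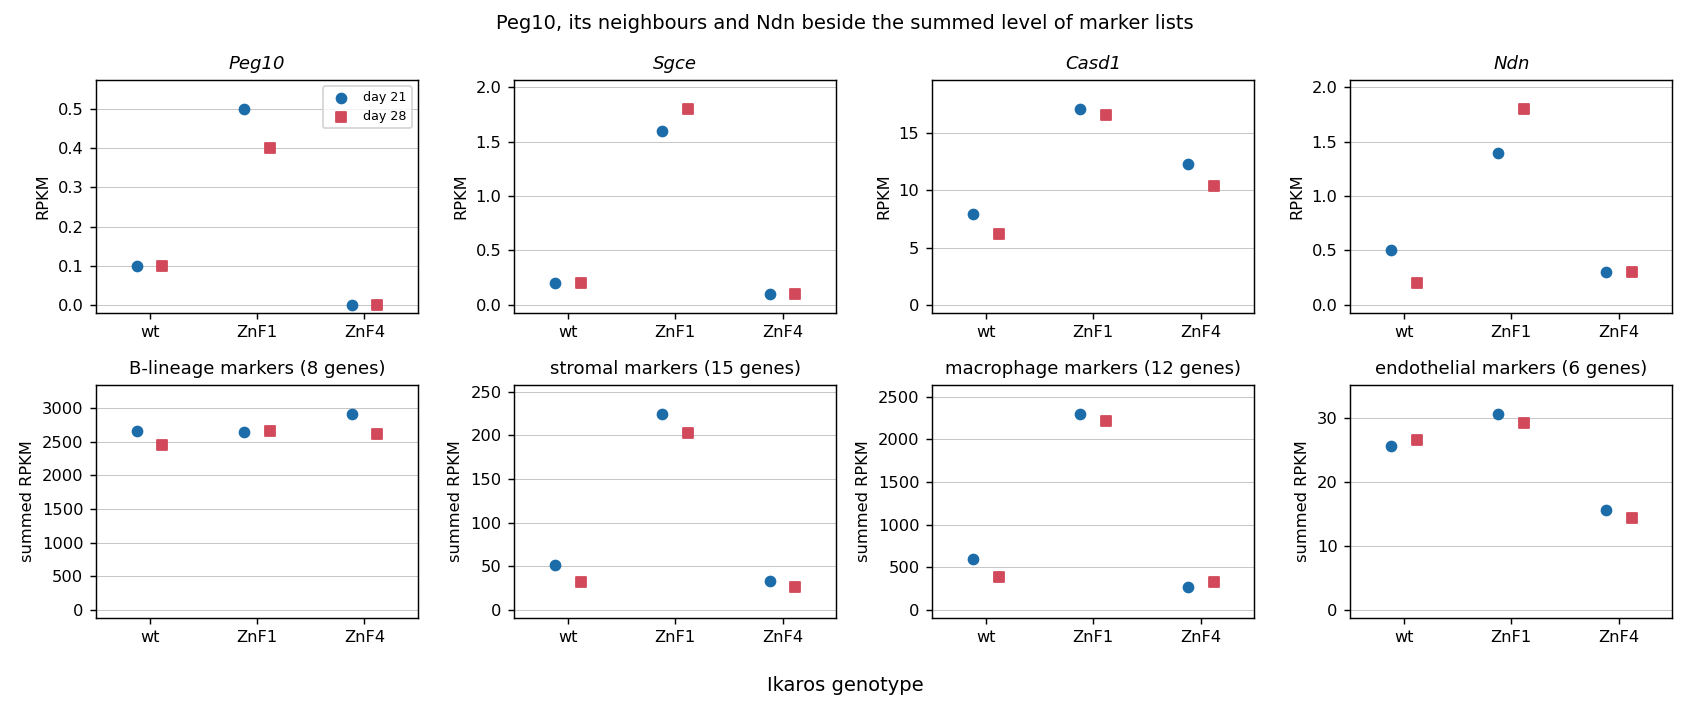
RPKM of Peg10, its neighbours Sgce and Casd1, and Ndn (upper row) and the summed RPKM of 4 marker lists (lower row) by Ikaros genotype, with a circle for day 21 and a square for day 28, and a separate vertical scale per panel. Peg10, Sgce, Ndn and the stromal and macrophage sums are highest in both ZnF1 libraries, while the B-lineage sums lie between 2456.9 and 2907.3 RPKM in all 6.

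In the ZnF4 mutant none of the 4 tested imprinted genes was called against wild type by limma, where 18.2% of all tested genes were called (10.9% higher and 7.32% lower). At an unadjusted p below 0.05 there was 1, Zrsr1, against 32.5% of all tested genes. Impact was 0.14 ± 0.08 and Ndn -0.05 ± 0.15 from wild type (limma adjusted p = 0.276 and 0.871). Among the 10, Mest and Impact had both ZnF4 libraries above both wild type libraries, and Peg10 and Zrsr1 had both below. The shares among all symbols were 18.2% above and 14.5% below. In the same ZnF4 libraries H19 stood at 3062.2 and 2008.3 RPKM and Igf2 at 247.2 and 175.2 RPKM. Wild type had 12.2 and 1.3 RPKM of H19 and 0.7 and 0.2 RPKM of Igf2. The ZnF1 mutant had 23.7 and 36 RPKM of H19 and 6.1 and 5.9 RPKM of Igf2. Peg3, Plagl1, Dlk1, Meg3, Snrpn and Peg10 were listed at 0 in the ZnF4 libraries, and none exceeded 0.1 RPKM in wild type.

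Between the mutants, Ndn and Zrsr1 were lower in the ZnF4 mutant than in the ZnF1 mutant. This is 2 of 4 tested members, with Ndn tested only through its values in the ZnF1 mutant, where 23.2% of tested genes were called lower, 22.3% higher and 45.5% in either direction. With quantile scaling the split over all genes turned from 2540 higher and 2637 lower to 3379 higher and 2413 lower. Ndn and Zrsr1 were still called lower, Zrsr1 close to the threshold (limma adjusted p = 0.0491). The difference was -0.996 ± 0.154 for Ndn (limma adjusted p = 0.00534) and -0.63 ± 0.12 for Zrsr1 (limma adjusted p = 0.0106). For Ndn it was -2.08 with a pseudocount of 0.1 and -0.64 with quantile scaling, which gave -0.35 for Zrsr1. The call of Ndn was lost without either ZnF4 library (limma adjusted p = 0.0581 and 0.0523) and without the filter (limma adjusted p = 0.0627). That of Zrsr1 was lost without the ZnF1 or the ZnF4 library of day 28 (limma adjusted p = 0.0814 and 0.0538) and without the filter (limma adjusted p = 0.0959). Impact (-0.22 ± 0.08, limma adjusted p = 0.0654) and Mest (-0.11 ± 0.11, limma adjusted p = 0.455) were not called. Without a test, 8 of the 10 imprinted genes had both ZnF4 libraries below both ZnF1 libraries, all but Mest and Dlk1, against 23.5% of all symbols. Among the 8, Peg3, Plagl1, Meg3, Snrpn and Peg10 were listed at 0 in both ZnF4 libraries. None of them exceeded 0.5 RPKM in the ZnF1 mutant, so they are apart only near the rounding limit. Of the 13 tested stromal markers 12 were called lower in the ZnF4 mutant than in the ZnF1 mutant, as were all 12 macrophage markers. Pdgfra, Pdgfrb and Fbn1 among them were tested only through their values in the ZnF1 mutant. The part of these cell types in the differences of the imprinted genes was not tested. This comparison and the preceding ones share libraries, so they are not independent of each other.

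From day 21 to day 28 none of the 4 tested members was called by limma, nor was any of the 11379 genes (0%). At an unadjusted p below 0.05 there were 0 of the 4 members and 14.3% of all tested genes. Impact was higher at day 28 in each genotype, by 0.12 for wild type, 0.16 for ZnF1 cells and 0.08 for ZnF4 cells (0.12 ± 0.06 over the 3, limma adjusted p = 0.437). Ndn moved by -0.32, 0.22 and 0 in the same order, and Zrsr1 by -0.07, 0.03 and -0.32.

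Promoters of the members were read from the RefSeq table of build GRCm38.p6, which holds 8 of the 10 by symbol (Impact and Peg10 are missing) with 14 start sites. The RPKM values were made on build mm9, so genes were joined by symbol alone. The 250 bases before each start were searched on both strands for TGCCGC, the letters bound by the imprint-keeping factor Zfp57 when methylated, and for GGGAA, the core bound by Ikaros. Matches to the 2 motifs cannot overlap. TGCCGC was found before 4 of the 14 starts, in Mest (2 nearly coincident starts), Plagl1 and Meg3, and before 8.68% of all 32851 starts in the table. GGGAA was found before 8 of the 14 and before 56.2% of all starts. Printed are the promoters of Ndn and Zrsr1 because these genes differed between the genotypes, and that of Mest as an example with both motifs. A Meg3 start, not printed, holds both motifs too. Matches on either strand are in capitals, and a match is a description of letters only.
Ndn, chr7:62348027-62348276, plus strand: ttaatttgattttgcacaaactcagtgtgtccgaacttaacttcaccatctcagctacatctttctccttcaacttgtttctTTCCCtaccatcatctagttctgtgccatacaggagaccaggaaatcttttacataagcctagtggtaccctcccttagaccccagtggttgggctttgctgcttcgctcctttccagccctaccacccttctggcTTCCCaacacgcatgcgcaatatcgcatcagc
Zrsr1, chr11:22971755-22972004, plus strand: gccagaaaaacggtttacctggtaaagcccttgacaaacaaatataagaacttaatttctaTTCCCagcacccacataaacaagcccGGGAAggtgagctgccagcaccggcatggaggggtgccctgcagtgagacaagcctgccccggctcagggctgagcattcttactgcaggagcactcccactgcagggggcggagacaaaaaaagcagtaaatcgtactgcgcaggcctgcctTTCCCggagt
Mest, chr6:30737800-30738049, plus strand: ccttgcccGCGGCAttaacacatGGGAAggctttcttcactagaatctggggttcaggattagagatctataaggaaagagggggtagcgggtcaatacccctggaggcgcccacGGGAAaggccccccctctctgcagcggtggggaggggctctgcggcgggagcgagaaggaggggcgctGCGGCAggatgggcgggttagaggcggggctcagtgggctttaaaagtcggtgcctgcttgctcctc
In the Ndn promoter GGGAA was matched 2 times, both on the minus strand, beginning 168 and 32 bases before the start. The Zrsr1 promoter has 3 matches, beginning 189, 163 and 10 bases before the start. Mest has GGGAA beginning 227 and 135 bases before the start, and TGCCGC on the minus strand beginning 242 and 67 bases before it. The number of CpG pairs in these windows was 5 for Ndn, 8 for Zrsr1 and 14 for Mest, with a median of 6 over all starts.

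Across the 6 libraries the genes most like a called member were found by Pearson correlation of log2(RPKM + 1), as a description of 6 points that share genotype and culture. Closest to Ndn were Urgcp (r = 0.996), the small GTPase Rab34 (r = 0.996) and Prkcdbp (r = 0.996), a caveolar coat protein. Rab34 had 0.8 and 0.3 RPKM in wild type, 3.2 and 3.7 RPKM in the ZnF1 mutant and 0.4 and 0.5 RPKM in the ZnF4 mutant, with both ZnF1 libraries above the other 4. For Impact they included Rad51l3 (r = 0.996) and Crtap (r = 0.994), and for Zrsr1 they were BC017643 (r = 0.995), Ankrd12 (r = 0.99) and Gng2 (r = 0.983).

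Beyond the members, 34 neighbours at their loci and 25 imprinted genes at further loci, the H19 domain left out, were listed. These 25 are genes known as imprinted in some tissue, and total RNA cannot show whether any of them is imprinted in these cells. Of the neighbours 17 stayed below 1 RPKM in all libraries, 10 of them at 0 throughout. Among the 17 tested, 6 were called higher and 2 lower in the ZnF1 mutant (median 0.03, against -0.02 for all tested genes), where 22.9% of tested genes were called higher and 15.2% lower. Sgce, counted among the 6, was tested only through its values in the ZnF1 mutant. Quantile scaling gave 5 calls in each direction. Higher and lower calls numbered 3 and 0 without wild type day 21, 4 and 0 without wild type day 28, and 2 and 0 without either ZnF1 library. In the ZnF4 mutant Casd1, Pon3 and Tsga14, 3 of 17, were called higher and the rest were not called (median 0.14 against 0.02), where 10.9% of tested genes were called higher. All 3 calls ended when any single wild type or ZnF4 library was left out, and 1 neighbour was called without ZnF1 day 21. Of the 25 other imprinted genes 15 were tested. In the ZnF1 mutant 9 were called higher and the rest were not called (median 0.48), where 22.9% of tested genes were called higher. That count was 6 with quantile scaling, 2 without the filter, 5 without either wild type library or without ZnF1 day 21, and 4 without ZnF1 day 28. In the ZnF4 mutant 4 were called higher and 1 lower (median -0.03), where the shares of tested genes were 10.9% and 7.32%. Without the filter, or without any single wild type or ZnF4 library, 1 was called higher.

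Of these genes, those called with a difference of at least 1 are described, Sgce and Casd1 with Peg10 above and the others here. Grb10, an adaptor that restrains insulin and IGF receptors, had 2.6 and 2 RPKM in wild type, 10.9 and 7.6 RPKM in the ZnF1 mutant and 30.5 and 16.8 RPKM in the ZnF4 mutant. The 3 genotypes did not overlap, and the ZnF4 mutant was highest. Grb10 was higher than in wild type by 1.62 ± 0.15 for ZnF1 cells and by 2.85 ± 0.15 for ZnF4 cells (limma adjusted p = 0.00159 and 0.000846), and higher in the ZnF4 than in the ZnF1 mutant by 1.23 ± 0.15 (limma adjusted p = 0.0023). Igf2r, the receptor that clears IGF2, had 16.7 and 19.1 RPKM in wild type, 21.5 and 19.6 RPKM in the ZnF1 mutant and 8.6 and 10.3 RPKM in the ZnF4 mutant. Igf2r was lower in the ZnF4 mutant than in the ZnF1 mutant by -1.05 ± 0.11 (limma adjusted p = 0.00155), and than in wild type by -0.86 ± 0.11 (limma adjusted p = 0.00774). The latter call ended without the filter and when any single wild type or ZnF4 library was left out.

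Ddc, Dcn, Gab1, Qpct and Gatm were called higher in the ZnF1 mutant. Ddc, which makes dopamine and serotonin, showed 2.16 ± 0.21, and the matrix proteoglycan gene Dcn, a fibroblast product, 1.66 ± 0.32. The adaptor gene Gab1 showed 1.52 ± 0.18, the glutaminyl cyclase gene Qpct 1.48 ± 0.10 and the creatine synthesis gene Gatm 1.23 ± 0.21. Gab1 and Qpct were also called higher in the ZnF4 mutant than in wild type, by 0.91 ± 0.18 and 0.42 ± 0.10 (limma adjusted p = 0.0281 and 0.0404). Both of these ZnF4 calls ended without the filter and when any single wild type or ZnF4 library was left out. That of Qpct also ended with quantile scaling, without the replicate block and without either ZnF1 library. All 5 genes also differed between the mutants, with the ZnF4 mutant lower by -1.74 ± 0.21 for Ddc, -2.40 ± 0.32 for Dcn, -0.61 ± 0.18 for Gab1, -1.05 ± 0.10 for Qpct and -1.33 ± 0.21 for Gatm. In the ZnF1 mutant against wild type the calls of Ddc, Dcn, Gab1 and Gatm ended when the filter was dropped. They also ended without ZnF1 day 28 for Dcn, without wild type day 21 for Gab1, and without wild type day 28 or either ZnF1 library for Gatm. The highest limma adjusted p over these alternatives was 0.0516 for Ddc, 0.136 for Dcn, 0.0643 for Gab1 and 0.112 for Gatm. Between the mutants the calls of Ddc, Dcn and Gatm ended without the filter, and that of Dcn also without ZnF4 day 21 (limma adjusted p up to 0.0588, 0.0673 and 0.0886). The call of Gab1 between the mutants was lost with quantile scaling, without the filter and without 5 of the 6 single libraries, the ZnF1 library of day 28 being the other (limma adjusted p up to 0.255).

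**Figure D4:**
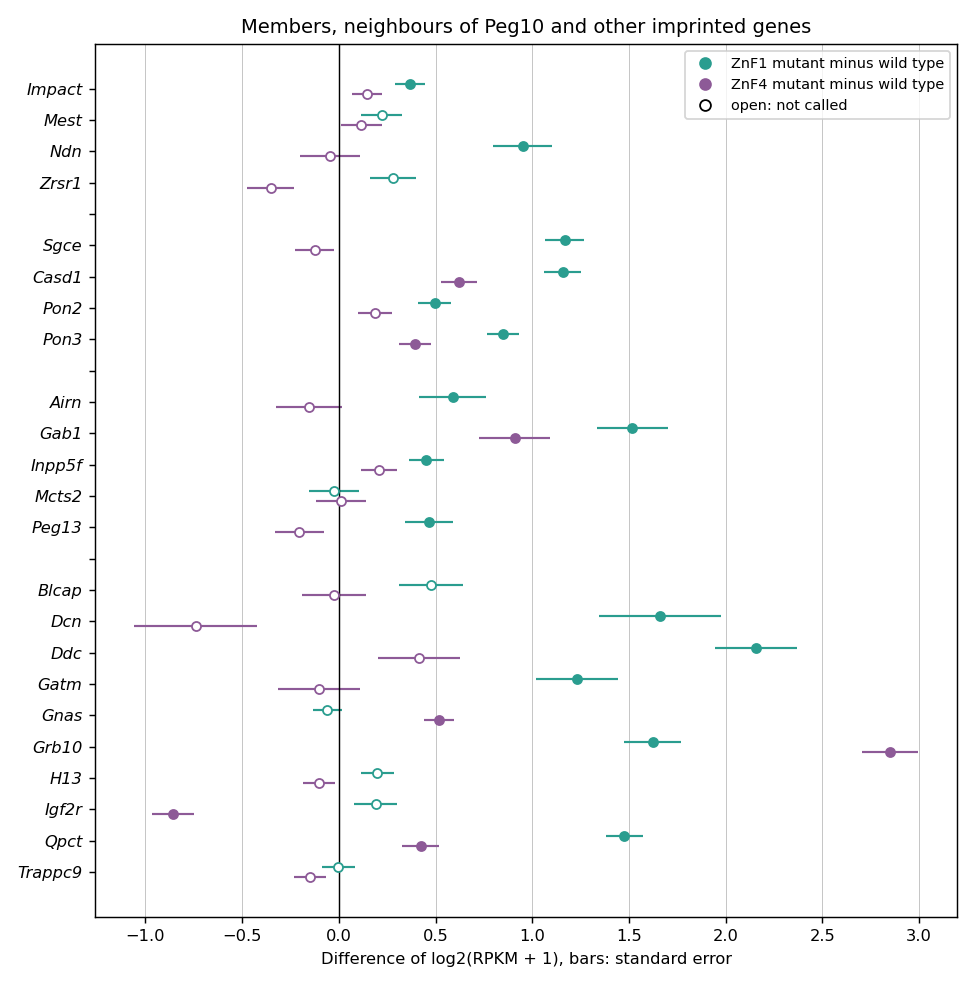
Difference of log2(RPKM + 1) from wild type (horizontal axis, bars are standard errors, n = 2 libraries per genotype) for the tested members, neighbours of Peg10, and other paternally and maternally expressed imprinted genes, from top to bottom in groups. Green is the ZnF1 mutant, purple the ZnF4 mutant, and open points were not called; the largest difference is 2.85 for Grb10 in the ZnF4 mutant.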

How the data were processed

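Poly(A) RNA of 6 libraries (3 Ikaros genotypes at day 21 and day 28) was sequenced. The submitters' processing notes name TopHat, bedtools and mouse build mm9, without versions. The authors deposited RPKM values for 26531 RefSeq rows, rounded to 1 decimal. Left out was 1 stray row that names no gene. The row with the highest mean stood for each of 3305 symbols with several rows. To look for single-read steps, low values of the shortest rows (below 160 bases) were set against trial depths. At the best depth 2.33% to 32.7% fell on steps, where chance gives 2.36% to 30.9%, and the depth remains unknown.

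The scale of the test is log2(RPKM + 1), a pseudocount of 1, and genes with at least 1 RPKM in at least 2 libraries were fitted with limma 3.58.1 (R 4.3.3), with genotype and day as terms and a mean-variance trend (2 residual degrees of freedom and a prior of 3.22). Day was kept as a block because it is the pairing that the labels give. Day changes correlated across genes between genotypes at 0.226 to 0.433. At most 5.61% of tested genes had identical values in a pair of libraries. The test was tried on simulated data for the ZnF1 and wild type comparison (11379 genes). In these, 100 genes were changed by 0.585 on the log2 scale and 100 by 1. Of the former 13% were called and of the latter 53%, and 0% of calls were false. Whether such shares hold for the deposited data, where 38.1% of genes were called, was not tested. The members and lists were chosen with earlier results of these data known. All members are named, and 1 gene that the rule on likeness to a member would name is not reported here. Of the other lists those called with a log2 difference of at least 1, fixed neighbours that share a control region, and related gene copies are named, and others were chosen after their values were seen. The alternatives were 14 per result. Exon overlaps and shared stretches come from GENCODE M21 (GRCm38), and no coordinates were carried between builds.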

Additional observations from a re-analysis of the deposited data

How the results depend on the processing

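The count of imprinted genes called was 2 in the ZnF1 mutant against wild type, 0 in the ZnF4 mutant against wild type and 2 between the mutants. It stayed the same with a pseudocount of 0.1, both other scalings, the mean over transcript rows, no mean-variance trend and without the replicate block on day (2, 0 and 2), and the block changed no call of a member. A mean of at least 4 RPKM left only Impact in the test, with counts of 1, 0 and 0. Leaving out single libraries gave 0 to 2 in the ZnF1 mutant against wild type and 0 to 2 between the mutants, and 0 in the ZnF4 mutant against wild type and between days. Without the filter the counts were 3, 0 and 2 and the genes changed to Impact, Peg10 and Peg3, and to Peg10 and Peg3. Peg3 had identical values within each genotype after rounding, so its spread was 0 and its limma adjusted p of 2.53e-06 there has no meaning as a test. Of 196 single-gene values under the alternatives 176 kept their direction and side of the threshold, 12 fell short of it and 8 changed sign, all of them differences that were not called. With quantile scaling Mest turned to -0.18 in the ZnF1 mutant against wild type and to 0.26 between the mutants, and Zrsr1 to -0.064 in the ZnF1 mutant. Leaving out single libraries gave day differences of -0.069 to 0.037 for Mest and -0.050 to 0.11 for Ndn, and a ZnF4 mutant difference from wild type of -0.26 to 0.17 for Ndn. Day could not be tested without the block. Over all genes, calls fell from 4336, 2076 and 5177 to 2711, 484 and 3831 without the filter. Leaving out single libraries gave 1374 to 4608, 403 to 1662 and 2376 to 3943, and 9 genes, none a member, were called between days without the filter. Rounding to 1 decimal and the unknown depth limit what can be read below about 1 RPKM.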

Other observations

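Genes that maintain imprints were listed as well, 16 in all, of which 11 were tested. In the ZnF1 mutant Trim28, Dnmt1, Ctcf and Smchd1 were called lower and Dnmt3a higher, 4 and 1 of 11, where 15.2% and 22.9% of tested genes were called. These genes were named after their values were seen. Dnmt1, the maintenance DNA methyltransferase, had 165.9 and 149.5 RPKM in wild type, 116.8 and 108 RPKM in the ZnF1 mutant and 194 and 184.9 RPKM in the ZnF4 mutant. The ZnF1 mutant differed from wild type by -0.48 ± 0.07 (limma adjusted p = 0.00612). Trim28, the corepressor recruited by Zfp57, differed by -0.30 ± 0.08, the insulator protein gene Ctcf by -0.29 ± 0.07 and Smchd1 by -0.31 ± 0.08, while Dnmt3a, a de novo methyltransferase, differed by 0.53 ± 0.08. All 5 calls ended without at least 1 of the wild type or ZnF1 libraries (limma adjusted p up to 0.291). The calls of Trim28, Ctcf and Smchd1 also ended without the filter, those of Trim28 and Ctcf with quantile scaling, and those of Trim28 and Smchd1 without the replicate block. Tet2 was the 1 gene of the list called in the ZnF4 mutant against wild type, with a difference of -0.68 ± 0.16. This is 1 of 11 called lower, near the 7.32% of all tested genes called lower. The Tet2 call ended when a single wild type or ZnF4 library was left out and without the filter. It also ended with quantile scaling, without the replicate block and without the mean-variance trend. Zfp57 itself was at 0.4 and 0.2 RPKM in the ZnF1 mutant and listed at 0 in the other 4 libraries.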
